A study of Mus musculus with 4 samples.

Results

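The subject was the breakdown of amino acids outside the urea cycle, taken as 42 mouse genes picked by gene symbol from the 54532 genes of the deposited tables. All 42 were found in the count and FPKM tables. The samples of the series were 4 livers with a liver-specific knockout of Cpt1a, taken after a 24 h fast. Cpt1a codes for the enzyme that joins long-chain fatty acids to carnitine at the outer mitochondrial membrane, so that they can enter mitochondria and be oxidised. Cpt2 codes for the partner enzyme of the inner membrane. The series' design also names fasted mice lacking Cpt2, whose libraries belong to an earlier series, and fasted littermate controls. The libraries of those groups were not analysed here, and they enter only through the authors' deposited tables of 3 comparisons. The column headers of those tables list 4 libraries per group, name the knockout groups with AlbCre, a Cre recombinase under the albumin promoter that acts mainly in hepatocytes, and give the control group a short name that joins Rab30 and Cpt2. What that short name stands for is not given in the sources used here, and the group is called the reference group below. Sex, age and strain are likewise not given. Since nothing in the labels ties the 4 libraries to separate mice, their spread may be technical.

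The 4 libraries held 13138884 to 14116441 counts and detected 19732 to 20258 genes. Cpt1a stood at 24.4 to 36.9 FPKM in the knockout livers, and the authors' deposited table gave it 6.91-fold lower than in the reference group (log2 fold change -2.79, adjusted p = 5.27e-51). Cpt2 mRNA was not called lower in the group labelled Cpt2 knockout in the authors' deposited table (log2 fold change -0.07, adjusted p = 0.837), so its transcript does not check that label. Whether all groups were sequenced together is not given, and genotype and batch cannot be told apart.

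Amino acids that are not used for protein lose their nitrogen, as ammonia or onto glutamate and aspartate, and the liver turns that nitrogen into urea. The remaining carbon skeletons enter the citric acid cycle, gluconeogenesis or ketone body synthesis. The aromatic, histidine, lysine, proline and glycine pathways have high activity in hepatocytes, and several of their first enzymes are known to be induced by glucocorticoids and glucagon in fasting. Branched-chain amino acids are transaminated mostly in muscle, and their keto acids are then oxidised in liver mitochondria and elsewhere.

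The promoters of 4 members are shown because these genes mark the ends of the pattern described below. Tat had the deepest fall in the Cpt1a knockout and Etnppl the deepest in the Cpt2 group, Prodh2 differed most between the knockouts, and Gcsh was higher in the Cpt1a knockout against both other groups. Each sequence runs 5′ to 3′ on the gene's strand from 250 bases before to 50 bases after a transcription start in RefSeq (GRCm38.p6). Capitals mark the letters CCAAT, the letters GGGCGG and the letters TATAAA on either strand. The Tat promoter lies at chr8:109990186-109990485 on the plus strand, the Etnppl promoter at chr3:130617198-130617497 on the plus strand, the Prodh2 promoter at chr7:30493408-30493707 on the plus strand and the Gcsh promoter at chr8:116993449-116993748 on the minus strand.
Tat: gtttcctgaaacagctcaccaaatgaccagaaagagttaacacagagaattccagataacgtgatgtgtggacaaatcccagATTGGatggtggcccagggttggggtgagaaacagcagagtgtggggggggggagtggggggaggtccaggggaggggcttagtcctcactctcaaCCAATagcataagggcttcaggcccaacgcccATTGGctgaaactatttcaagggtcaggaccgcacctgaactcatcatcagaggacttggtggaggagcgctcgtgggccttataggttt
Etnppl: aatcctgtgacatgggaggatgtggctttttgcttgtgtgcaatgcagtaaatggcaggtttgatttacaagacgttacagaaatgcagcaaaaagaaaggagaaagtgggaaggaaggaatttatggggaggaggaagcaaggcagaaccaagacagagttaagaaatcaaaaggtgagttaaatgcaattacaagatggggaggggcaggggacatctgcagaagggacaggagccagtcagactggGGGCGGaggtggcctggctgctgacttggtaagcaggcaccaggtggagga
Prodh2: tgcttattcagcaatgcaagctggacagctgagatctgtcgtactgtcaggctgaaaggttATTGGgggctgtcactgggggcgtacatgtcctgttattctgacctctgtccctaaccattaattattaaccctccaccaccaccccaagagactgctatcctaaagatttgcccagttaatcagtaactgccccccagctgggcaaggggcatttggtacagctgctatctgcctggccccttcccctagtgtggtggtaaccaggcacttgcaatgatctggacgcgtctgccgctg
Gcsh: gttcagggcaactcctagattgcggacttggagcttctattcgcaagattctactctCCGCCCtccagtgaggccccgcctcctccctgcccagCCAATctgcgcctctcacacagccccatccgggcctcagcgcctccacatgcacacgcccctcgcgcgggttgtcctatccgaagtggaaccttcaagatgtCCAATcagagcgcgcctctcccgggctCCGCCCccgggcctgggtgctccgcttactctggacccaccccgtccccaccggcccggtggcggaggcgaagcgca

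The Tat window held CCAAT in 3 places, the Gcsh window held CCAAT in 2 places and GGGCGG in 2, the Prodh2 window held CCAAT in 1 place and the Etnppl window held GGGCGG in 1. The Gcsh window had 24 CG dinucleotides, the Tat and Prodh2 windows 5 each and the Etnppl window 2. RefSeq promoters were matched by symbol for 37 of the 42 members, with 43 starts between them. CCAAT was in 51.2% of these 43 windows and in 37.4% of all 32851 windows of the same length, GGGCGG in 46.5% and 35.7%, and TATAAA in 9.30% and 13.6%. Of motifs known for liver factors, TTGCNNAA (C/EBP) was in 14.0% of member windows and 10.8% of all windows. TGTTCT (part of the glucocorticoid receptor site) was in 9.30% and 19.0%. CAAAGTCCA (HNF4) was in 0% and 0.475%, and the palindromic HNF1 motif in 0% and 0.00913%. Both of the last motifs are so rare over all windows that 43 windows could hardly hold them. Their 0% therefore says nothing about the members, and looser forms of these motifs were not searched. Both strands were searched, overlapping matches were kept, and a match describes letters in a window and not a bound factor.

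The members were abundant transcripts in the fasted knockout livers. Their FPKM, the deposited count per kilobase of gene and scaled to library size, summed to 4620, 4584, 4668 and 3826 in livers 1 to 4 (4424 ± 400.2 SD, n = 4). That was 1.22%, 1.23%, 1.18% and 0.989% of all FPKM in these livers. The mean level was at least 10 FPKM for 39 members, at least 50 for 22 and at least 100 for 8. Every member had at least 247 counts in every library.

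**Figure D1:**
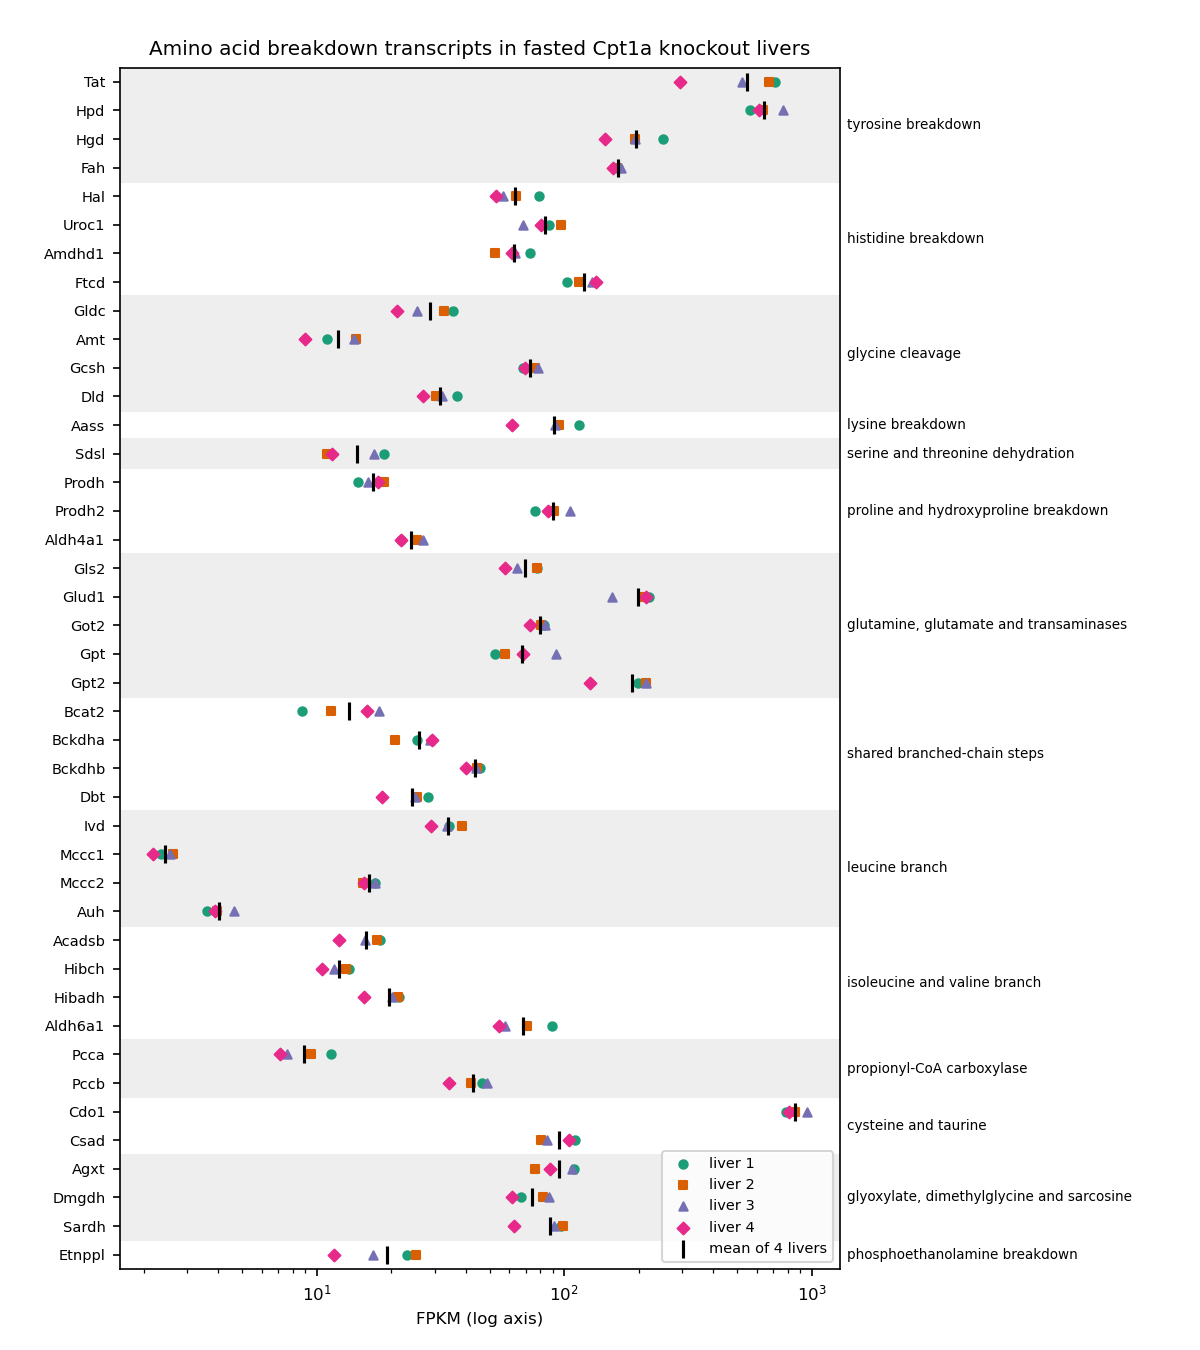
Level of each of the 42 members in the 4 Cpt1a knockout livers, on a log axis of FPKM, with a symbol per liver and a bar at the mean of the 4, grouped by role. Cdo1, Hpd and Tat stand at the top and Pcca, Auh and Mccc1 at the bottom.

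Cdo1, the dioxygenase that opens cysteine breakdown, was the most abundant at 789, 859, 959 and 809 FPKM in livers 1 to 4. Hpd, the 4-hydroxyphenylpyruvate dioxygenase of tyrosine breakdown, followed at 562, 636, 766 and 610 FPKM. Tat, which transfers the amino group of tyrosine, had 711, 671, 522 and 295 FPKM. These 3 genes made up 46.3% of the members' summed FPKM. At the low end were Mccc1, a subunit of the methylcrotonyl-CoA carboxylase of leucine breakdown, at 2.35, 2.63, 2.56 and 2.18 FPKM, and Auh, the methylglutaconyl-CoA hydratase of the same pathway, at 3.60, 3.94, 4.64 and 3.88 FPKM. Their deposited gene models are long, at 10952 and 9580 bases, which lowers a value per kilobase. Pcca, a subunit of propionyl-CoA carboxylase, had 11.4, 9.47, 7.60 and 7.13 FPKM. When the members were ordered by mean FPKM, 6 of the 41 neighbouring pairs differed by more than the sum of their SDs. Those pairs were Cdo1 over Hpd, Tat over Glud1, Fah over Ftcd, Amdhd1 over Bckdhb, Pcca over Auh and Auh over Mccc1.

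Most of the 42 members were lower in the Cpt1a knockout livers than in the reference group. At an adjusted p below 0.05 in the authors' deposited table, 32 of the 42 members were lower and 2 were higher, while 7.6% of all 16862 genes were lower and 6.81% were higher. The median log2 fold change of the members was -0.67 in the authors' deposited table, a 1.59-fold lower level, against a median of 0.01 over all genes. Of the 32 members, 11 were at least 2-fold lower. The share of all genes that far lower was not computed. The members with the smallest adjusted p were Tat, Gldc and Prodh among those that were lower, and the 2 that were higher were Gcsh and Csad. That table stops at an unadjusted p of 0.05, and 6 members (Amt, Aldh4a1, Bcat2, Mccc2, Auh and Hibch) were not in it. For these 6 the log2 fold change is the sum of those in the other tables, which carries no p. For members found in every table this sum lay within 0.0137 of the listed value.

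In the Cpt2 group against the same reference group, 31 of the 42 members were lower and 0 were higher in the authors' deposited table, while 10.7% of all 17475 genes were lower and 10.3% were higher. At an unadjusted p below 0.05 in that authors' deposited table, 32 members were lower and 1, Csad, was higher. The share of all genes at that unadjusted threshold was not computed. The median log2 fold change of the members was -0.82 in the authors' deposited table against -0.03 over all genes. In this comparison 13 members were at least 2-fold lower, and again no share of all genes was computed for that fold. Both comparisons used the same reference libraries, so their values are given side by side and are not independent of each other. In bulk liver, fewer cells of a type and less RNA per cell cannot be told apart.

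**Figure D2:**
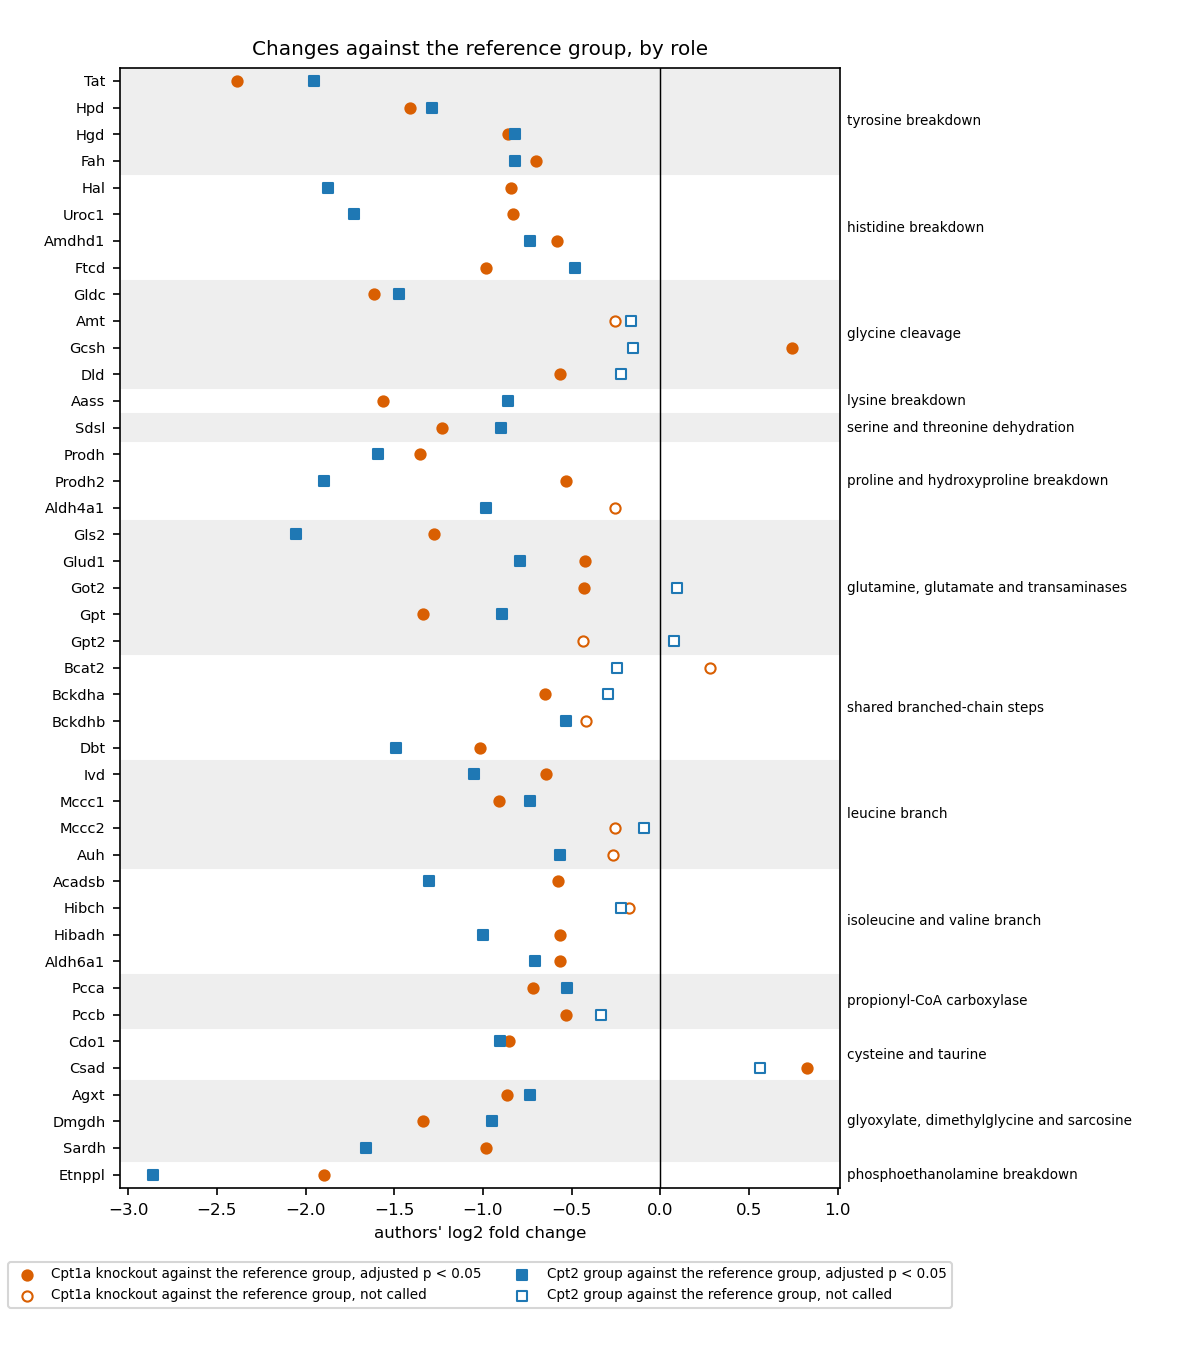
Log2 fold change of each member against the reference group in the authors' deposited tables, for the Cpt1a knockout (circles) and the Cpt2 group (squares), grouped by role and filled at an adjusted p below 0.05; 6 open circles are sums of the other tables. Most values lie below 0 in both; Gcsh and Csad lie above 0 in the Cpt1a knockout.

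All 4 members of tyrosine breakdown were lower in both groups. Gstz1, the isomerase between Hgd and Fah, is not a member and was counted among the other amino acid genes. Its log2 fold change was 0.14 in the Cpt1a knockout, as the sum of values in the authors' deposited tables, which carries no p. In the Cpt2 group Gstz1 fell by 0.73 (adjusted p = 0.000322) in the authors' deposited table. Gstz1 was higher in the Cpt1a knockout than in the Cpt2 group (log2 fold change 0.87, adjusted p = 2.91e-10). Tat was 5.22-fold lower in the Cpt1a knockout than in the reference group in the authors' deposited table (log2 fold change -2.38, adjusted p = 2.63e-13). Tat was 3.87-fold lower in the Cpt2 group than in the reference group in the authors' deposited table (log2 fold change -1.95, adjusted p = 1.43e-12). Tat also had the widest spread of all members, an SD of 0.58 in log2(FPKM + 1), with liver 4 the lowest. Hpd fell by 1.41 on the log2 scale in the Cpt1a knockout (adjusted p = 2.82e-09) and by 1.29 in the Cpt2 group (adjusted p = 7.57e-09) in the authors' deposited tables. Hgd, the homogentisate dioxygenase, had 249, 193, 193 and 146 FPKM, and fell by 0.86 in the Cpt1a knockout and by 0.82 in the Cpt2 group on the log2 scale in the authors' deposited tables. Fah, the fumarylacetoacetase that ends the pathway, was the steadiest member at 165, 164, 170 and 158 FPKM (SD 0.04 in log2). It fell by 0.70 in the Cpt1a knockout (adjusted p = 7.56e-07) and by 0.82 in the Cpt2 group (adjusted p = 1.6e-09) on the log2 scale in the authors' deposited tables.

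The 4 enzymes that take histidine to glutamate were also lower in both groups, and Hal, Uroc1 and Ftcd differed between the knockouts in the direct comparison given below. Hal, the histidine ammonia-lyase that opens the pathway, had 78.9, 64.0, 56.4 and 53.1 FPKM in the 4 livers. It fell by 0.84 in the Cpt1a knockout (adjusted p = 0.00018) and by 1.88 in the Cpt2 group (adjusted p = 7.45e-10) on the log2 scale in the authors' deposited tables. Uroc1, the urocanase of the next step, had 87.1, 97.4, 68.2 and 80.3 FPKM. It fell by 0.83 in the Cpt1a knockout (adjusted p = 2.25e-05) and by 1.73 in the Cpt2 group (adjusted p = 1.65e-26) on the log2 scale in the authors' deposited tables. Amdhd1, the imidazolonepropionase, had 52.7 to 73.0 FPKM, and fell by 0.58 in the Cpt1a knockout and by 0.73 in the Cpt2 group, by the authors' deposited tables. Ftcd, which passes the formimino group to folate, had 103, 115, 130 and 134 FPKM, with liver 4 the highest. It fell by 0.98 in the Cpt1a knockout (adjusted p = 5.68e-05) and by 0.48 in the Cpt2 group (adjusted p = 0.0487) on the log2 scale in the authors' deposited tables. Hal and Amdhd1 are neighbours on chromosome 10, at 93488768 to 93519304 on the plus strand and 93523338 to 93540033 on the minus strand, with 4033 bases between their 3′ ends.

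Of the 4 members of the glycine cleavage system, 2 were lower and 1 was higher in the Cpt1a knockout, and 1 was lower in the Cpt2 group. Gldc, its decarboxylase (P protein), had 35.6, 32.8, 25.5 and 21.1 FPKM in the 4 livers. It was 3.06-fold lower in the Cpt1a knockout than in the reference group in the authors' deposited table (log2 fold change -1.61, adjusted p = 6.55e-14), and it fell by 1.47 in the Cpt2 group (adjusted p = 1.11e-10). Gcsh, the lipoyl-carrying H protein, had 68.2, 76.5, 78.1 and 69.2 FPKM. It was 1.67-fold higher in the Cpt1a knockout than in the reference group in the authors' deposited table (log2 fold change 0.74, adjusted p = 0.0107). Gcsh stood at -0.15 on the log2 scale in the Cpt2 group (adjusted p = 0.724) in the authors' deposited table. Dld, the dihydrolipoamide dehydrogenase that this system shares with the pyruvate, oxoglutarate and branched-chain complexes, had 36.9, 30.3, 32.0 and 26.9 FPKM. It fell by 0.57 in the Cpt1a knockout (adjusted p = 0.0242) and had a log2 fold change of -0.22 in the Cpt2 group (adjusted p = 0.464) in the authors' deposited tables. Amt, the aminomethyltransferase (T protein), had 11.0, 14.5, 14.2 and 9.01 FPKM. Its log2 fold change was -0.26 in the Cpt1a knockout, as the sum of values in the authors' deposited tables, and -0.16 in the Cpt2 group (adjusted p = 0.66).

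Aass, the bifunctional enzyme that opens lysine breakdown, had 114, 94.9, 91.4 and 61.4 FPKM in the 4 livers. It was 2.95-fold lower in the Cpt1a knockout than in the reference group in the authors' deposited table (log2 fold change -1.56, adjusted p = 6.64e-06), and fell by 0.86 in the Cpt2 group (adjusted p = 0.0137). Sdsl, a relative of serine dehydratase, had 18.7, 11.0, 17.0 and 11.5 FPKM. It fell by 1.23 in the Cpt1a knockout (adjusted p = 0.00405) and by 0.90 in the Cpt2 group (adjusted p = 0.0489) on the log2 scale in the authors' deposited tables.

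Of the 3 members for proline and hydroxyproline, 2 were lower in the Cpt1a knockout and 3 in the Cpt2 group. Prodh, the proline dehydrogenase, had 14.6, 18.8, 16.2 and 17.7 FPKM in the 4 livers. It fell by 1.36 in the Cpt1a knockout (adjusted p = 1.23e-12) and by 1.59 in the Cpt2 group (adjusted p = 8.24e-17) on the log2 scale in the authors' deposited tables. Prodh2, the hydroxyproline dehydrogenase, had 76.5, 91.1, 106 and 86.3 FPKM. It was 1.44-fold lower in the Cpt1a knockout than in the reference group in the authors' deposited table (log2 fold change -0.53, adjusted p = 0.0115). Prodh2 was 3.72-fold lower in the Cpt2 group than in the reference group in the authors' deposited table (log2 fold change -1.89, adjusted p = 3.19e-40). Aldh4a1, a dehydrogenase that acts in both pathways, had 21.9, 25.5, 26.8 and 22.0 FPKM. Its log2 fold change was -0.25 in the Cpt1a knockout, as the sum of values in the authors' deposited tables, and it fell by 0.98 in the Cpt2 group (adjusted p = 1.37e-05).

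Of the 5 members for glutamine, glutamate and the transaminases, 4 were lower in the Cpt1a knockout and 3 in the Cpt2 group. Gls2, the liver glutaminase, had 77.4, 77.9, 64.2 and 57.7 FPKM in the 4 livers. It was 2.42-fold lower in the Cpt1a knockout than in the reference group in the authors' deposited table (log2 fold change -1.28, adjusted p = 4.97e-09). Gls2 was 4.14-fold lower in the Cpt2 group than in the reference group in the authors' deposited table (log2 fold change -2.05, adjusted p = 5.51e-18). Glud1, the mitochondrial glutamate dehydrogenase, had 220, 208, 156 and 214 FPKM, with liver 3 the lowest. It fell by 0.43 in the Cpt1a knockout with an adjusted p of 0.0496, next to the threshold, and by 0.79 in the Cpt2 group (adjusted p = 1.31e-07) in the authors' deposited tables. Gpt, the cytosolic alanine aminotransferase, had 52.3, 57.6, 92.7 and 68.4 FPKM and fell by 1.34 in the Cpt1a knockout (adjusted p = 1.27e-07) and by 0.89 in the Cpt2 group on the log2 scale in the authors' deposited tables. Its mitochondrial relative Gpt2 had 198, 213, 214 and 127 FPKM, with liver 4 the lowest. Its log2 fold change was -0.44 in the Cpt1a knockout (adjusted p = 0.179) and 0.08 in the Cpt2 group (adjusted p = 0.837) in the authors' deposited tables. Got2, the mitochondrial aspartate aminotransferase, had 83.0, 80.2, 83.9 and 72.7 FPKM. It fell by 0.43 in the Cpt1a knockout (adjusted p = 0.0162) and had a log2 fold change of 0.09 in the Cpt2 group (adjusted p = 0.675) in the authors' deposited tables. Processed copies of Glud1 and Got2 that are at least 95% identical over at least 200 bases had 47 to 86 counts (Glud-ps) and 14 to 37 counts (Got2-ps1) per library, few beside the counts of their parent genes.

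Of the 14 members for branched-chain breakdown, propionyl-CoA carboxylase included, 9 were lower in each group, and 0 were higher. The shares of all genes were 7.6% lower and 6.81% higher in the Cpt1a knockout, and 10.7% lower and 10.3% higher in the Cpt2 group. Acat1, Hsd17b10, Mcee and Mut, which act in isoleucine and valine breakdown, are not members. In the Cpt1a knockout Mut fell by 0.89, while Acat1, Hsd17b10 and Mcee stood, as sums, at 0.35, -0.05 and 0.06 on the log2 scale. In the Cpt2 group Mut fell by 0.49 and Mcee by 0.63, and Acat1 (0.47) and Hsd17b10 (-0.15) were not called. Over the 14 members the median log2 fold change was -0.56 in the Cpt1a knockout and -0.55 in the Cpt2 group, by the authors' deposited tables. By unadjusted p below 0.05 in the authors' deposited tables, 10 of these genes were lower in each group and 0 were higher. The authors' deposited table of the Cpt1a knockout listed 4461 genes with p of at most 0.05, in either direction, and its adjusted values fit 16862 genes. Shares of all genes by direction, and any share for the Cpt2 group at that threshold, were not computed. Bcat2, the branched-chain aminotransferase, is known to be low in liver, and had 8.75, 11.4, 17.9 and 15.9 FPKM. Its log2 fold change was 0.28 in the Cpt1a knockout, as the sum of values in the authors' deposited tables, and -0.24 in the Cpt2 group (adjusted p = 0.282). An antisense gene, 0610005C13Rik, overlaps Bcat2 by 622 bases and averaged 3991 counts against 817 for Bcat2, and since the use of strand in counting is not given, reads of the pair cannot be told apart.

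Of the branched-chain keto acid dehydrogenase, the committed step, Bckdha was called lower in the Cpt1a knockout, Bckdhb in the Cpt2 group and Dbt in both. Bckdha, the alpha subunit of the E1 part of this enzyme, had 25.4, 20.7, 28.8 and 29.2 FPKM. It fell by 0.65 in the Cpt1a knockout (adjusted p = 0.0104) and had a log2 fold change of -0.29 in the Cpt2 group (adjusted p = 0.267) in the authors' deposited tables. Bckdhb, the beta subunit, had 45.8, 44.6, 43.9 and 40.0 FPKM. Its log2 fold change was -0.42 in the Cpt1a knockout (adjusted p = 0.0544), just outside the threshold, and it fell by 0.53 in the Cpt2 group (adjusted p = 0.00427) in the authors' deposited tables. Dbt, the E2 core, had 28.1, 25.4, 24.9 and 18.3 FPKM. It fell by 1.02 in the Cpt1a knockout (adjusted p = 4.08e-05) and by 1.49 in the Cpt2 group (adjusted p = 7.82e-12) on the log2 scale in the authors' deposited tables.

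In the leucine branch, Ivd, the isovaleryl-CoA dehydrogenase, had 28.9 to 38.7 FPKM, and fell by 0.64 in the Cpt1a knockout and by 1.05 in the Cpt2 group on the log2 scale in the authors' deposited tables. Of the subunits of methylcrotonyl-CoA carboxylase, only Mccc1 was called. Mccc1, the biotin-carrying subunit, fell by 0.91 in the Cpt1a knockout and by 0.74 in the Cpt2 group, by the authors' deposited tables. Mccc2, the other subunit, had 17.2, 15.4, 17.3 and 15.5 FPKM, and its log2 fold change was -0.25 in the Cpt1a knockout, as a sum, and -0.09 in the Cpt2 group (adjusted p = 0.702) in the authors' deposited tables. Auh had a log2 fold change of -0.27 in the Cpt1a knockout, as the sum of values in the authors' deposited tables, and fell by 0.57 in the Cpt2 group (adjusted p = 0.000896).

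In the isoleucine and valine branch, 3 of 4 members were lower in each group. Acadsb, the short and branched-chain acyl-CoA dehydrogenase, had 18.1, 17.5, 15.7 and 12.3 FPKM, and fell by 0.58 in the Cpt1a knockout and by 1.31 in the Cpt2 group on the log2 scale in the authors' deposited tables. Hibadh, the hydroxyisobutyrate dehydrogenase of the valine pathway, had 15.5 to 21.4 FPKM, and fell by 0.56 in the Cpt1a knockout and by 1.00 in the Cpt2 group, by the authors' deposited tables. Aldh6a1, the methylmalonate semialdehyde dehydrogenase, had 54.3 to 88.9 FPKM, and fell by 0.56 in the Cpt1a knockout and by 0.71 in the Cpt2 group, by the authors' deposited tables. Hibch, the hydrolase that frees hydroxyisobutyrate from CoA, had 13.6, 13.2, 11.8 and 10.6 FPKM. Its log2 fold change was -0.17 in the Cpt1a knockout, as a sum, and -0.22 in the Cpt2 group (adjusted p = 0.539) in the authors' deposited tables. Both subunits of propionyl-CoA carboxylase, which receives propionyl-CoA from valine and isoleucine, were lower in the Cpt1a knockout, Pcca by 0.72 and Pccb by 0.53 on the log2 scale in the authors' deposited table. In the Cpt2 group Pcca fell by 0.52, and Pccb, at 34.3 to 48.7 FPKM in the Cpt1a knockout livers, stood at -0.33 (adjusted p = 0.0699) in the authors' deposited table. Pcca overlaps Ggact on the other strand by 241 bases, and the pair had similar counts, 711 and 702 on average.

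In sulfur amino acid breakdown, 1 member was lower and 1 was higher in the Cpt1a knockout. Cdo1 was 1.81-fold lower in the Cpt1a knockout than in the reference group in the authors' deposited table (log2 fold change -0.85, adjusted p = 3.52e-06), and it fell by 0.91 in the Cpt2 group. Csad, the decarboxylase that follows it on the way to taurine, had 110, 80.5, 85.2 and 104 FPKM. It was 1.78-fold higher in the Cpt1a knockout than in the reference group in the authors' deposited table (log2 fold change 0.83, adjusted p = 0.00569). Csad stood at 0.56 on the log2 scale in the Cpt2 group (adjusted p = 0.0671) in the authors' deposited table.

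Agxt, the alanine-glyoxylate aminotransferase that removes glyoxylate, had 110, 76.1, 107 and 87.8 FPKM, and fell by 0.87 in the Cpt1a knockout and by 0.73 in the Cpt2 group on the log2 scale in the authors' deposited tables. Dmgdh and Sardh, the mitochondrial dehydrogenases that take dimethylglycine to sarcosine and sarcosine to glycine, were both lower. Dmgdh had 66.6, 81.8, 87.1 and 61.3 FPKM, and fell by 1.34 in the Cpt1a knockout (adjusted p = 9.54e-06) and by 0.95 in the Cpt2 group, by the authors' deposited tables. Sardh had 97.3, 98.7, 90.7 and 62.6 FPKM, and fell by 0.98 in the Cpt1a knockout and by 1.66 in the Cpt2 group (adjusted p = 2.16e-15) in the authors' deposited tables. Etnppl, a lyase that breaks phosphoethanolamine into ammonia, phosphate and acetaldehyde, had 23.3, 25.3, 17.0 and 11.8 FPKM. It was 3.72-fold lower in the Cpt1a knockout than in the reference group in the authors' deposited table (log2 fold change -1.90, adjusted p = 1.93e-07). Etnppl was 7.27-fold lower in the Cpt2 group than in the reference group in the authors' deposited table (log2 fold change -2.86, adjusted p = 4.8e-16).

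Members were also grouped by the place of the enzyme in the cell, a grouping chosen after the values were seen. In the Cpt1a knockout 11 of 12 cytosolic members were lower and 1 was higher. Of the 29 mitochondrial members, 20 were lower and 1 was higher there. In the Cpt2 group 11 of 12 cytosolic and 19 of 29 mitochondrial members were lower, and 0 were higher. Agxt, peroxisomal or mitochondrial, was lower in both groups. The shares of all genes were 7.6% lower and 6.81% higher in the Cpt1a knockout, and 10.7% lower and 10.3% higher in the Cpt2 group. The difference between cytosolic and mitochondrial members was not tested.

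The authors' deposited table of the Cpt1a knockout against the Cpt2 group compares the knockouts directly. There 5 of the 42 members were lower and 12 were higher in the Cpt1a knockout, while 14.6% of all 17755 genes were lower and 14.2% were higher. The median log2 fold change of the members was 0.07 in the authors' deposited table against 0.05 over all genes, so as a group the members stood close to the centre of all genes. The members with the smallest adjusted p were Prodh2, Gcsh and Aldh4a1 among those that were higher and Got2, Ftcd and Aass among those that were lower.

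Prodh2 was 2.55-fold higher in the Cpt1a knockout than in the Cpt2 group in the authors' deposited table (log2 fold change 1.35, adjusted p = 2.92e-19). Gcsh was 1.84-fold higher in the Cpt1a knockout than in the Cpt2 group in the authors' deposited table (log2 fold change 0.88, adjusted p = 3.77e-09). Aldh4a1 was 1.66-fold higher in the Cpt1a knockout than in the Cpt2 group in the authors' deposited table (log2 fold change 0.73, adjusted p = 3.54e-07). Of the genes for proline and hydroxyproline, Prodh2 and Aldh4a1 were thus higher in the Cpt1a knockout than in the Cpt2 group. Prodh was not called (log2 fold change 0.22, adjusted p = 0.315) in the authors' deposited table. In histidine breakdown, Hal (log2 fold change 1.02, adjusted p = 0.00145) and Uroc1 (0.88, adjusted p = 4.90e-07) were higher in the Cpt1a knockout and Ftcd (-0.51, adjusted p = 0.000447) was lower in the authors' deposited table. The remaining members that were higher were Etnppl at 0.95, Gls2 at 0.76, Acadsb at 0.71, Sardh at 0.66, Dbt at 0.46, Hibadh at 0.42 and Ivd at 0.40 on the log2 scale in the authors' deposited table.

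Of the members that were lower, Got2 was 1.45-fold lower in the Cpt1a knockout than in the Cpt2 group in the authors' deposited table (log2 fold change -0.54, adjusted p = 3.89e-06). Aass was 1.64-fold lower in the Cpt1a knockout than in the Cpt2 group in the authors' deposited table (log2 fold change -0.71, adjusted p = 0.00169). Gpt2 fell by 0.53 and Dmgdh by 0.40 on the log2 scale in the authors' deposited table. Tat did not pass this test, at -0.44 on the log2 scale (adjusted p = 0.183) in the authors' deposited table. Bckdha, Dld and Pccb were called against the reference group in the Cpt1a knockout and not in the Cpt2 group, but none of the 3 passed the direct test, at -0.37, -0.35 and -0.21 on the log2 scale in the authors' deposited table. Likewise Auh and Bckdhb, called in the Cpt2 group and not in the Cpt1a knockout, stood at 0.30 and 0.10 on the log2 scale and did not pass in the authors' deposited table. Csad, higher in the Cpt1a knockout and not called in the Cpt2 group, stood at 0.25 in the direct test (adjusted p = 0.263) in the authors' deposited table. No difference between the knockouts is therefore shown for these 6 genes.

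**Figure D3:**
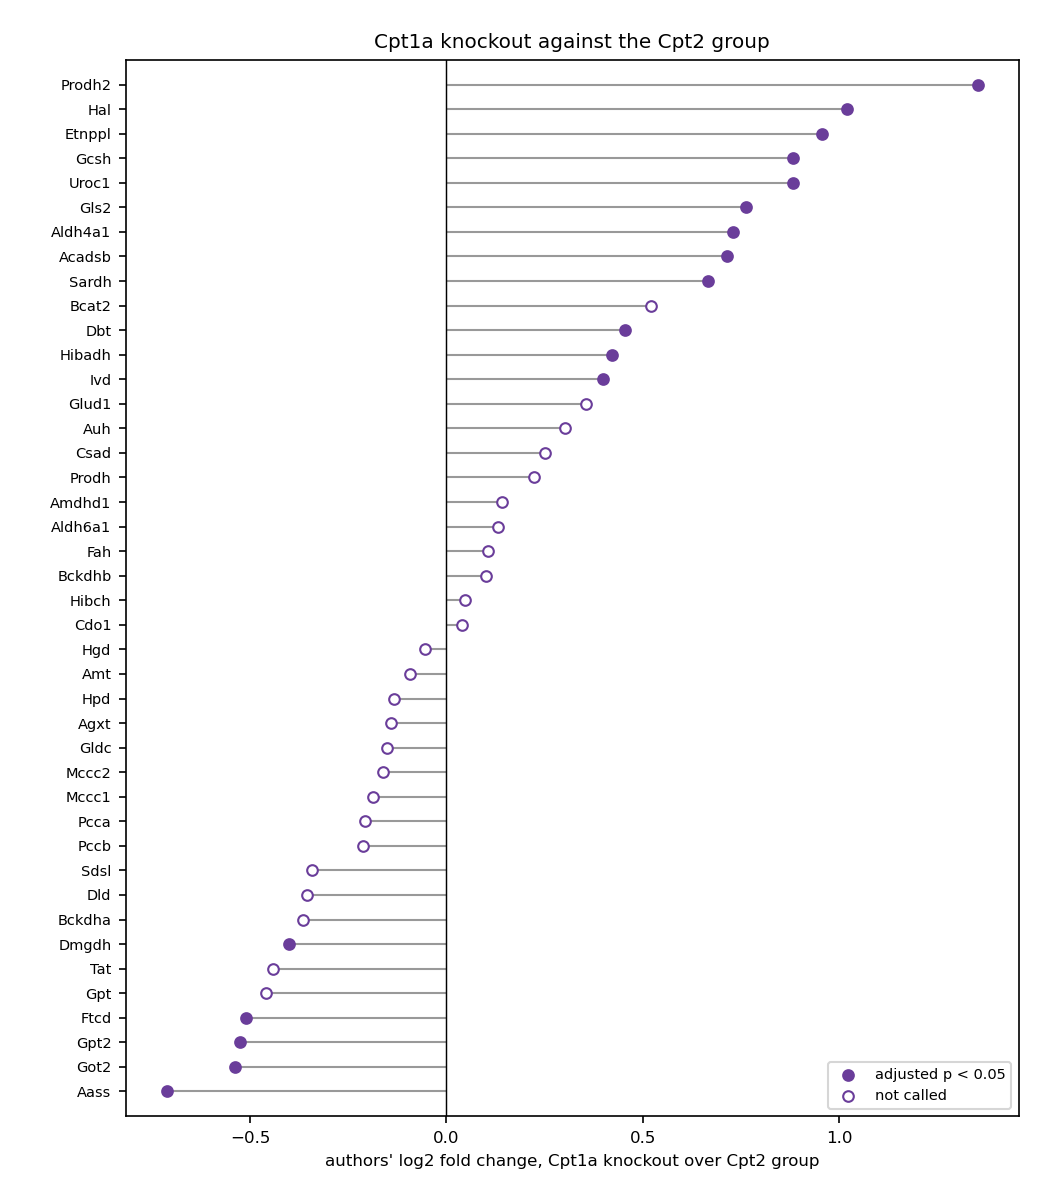
Log2 fold change of each member in the Cpt1a knockout against the Cpt2 group in the authors' deposited table, with filled circles at an adjusted p below 0.05. Prodh2 lies at 1.35 and Aass at -0.71, and 25 members did not pass.

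Between the 4 knockout livers, the members' median spread was close to that of all genes with a mean of at least 1 FPKM. The median of the members' mean levels was 62.9 FPKM, and genes of a like level were not compared. The median SD of log2(FPKM + 1) was 0.22 over the members and 0.20 over the 10859 genes with a mean of at least 1 FPKM, and 25 members lay above the value for all genes. Tat, Etnppl and Bcat2 varied most, with SDs of 0.58, 0.47 and 0.43, and Fah, Bckdhb and Mccc2 least, with 0.04, 0.08 and 0.09. Liver 4 had the lowest value in 24 of the 42 members (57.1%), while it had the lowest value in 24.2% of the 10859 genes. Livers 1, 2 and 3 were lowest in 10, 6 and 2 members. Liver 4 also had the highest Cpt1a level of the 4, at 36.9 FPKM. The part of liver 4 in the deposited comparisons was not tested.

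**Figure D4:**
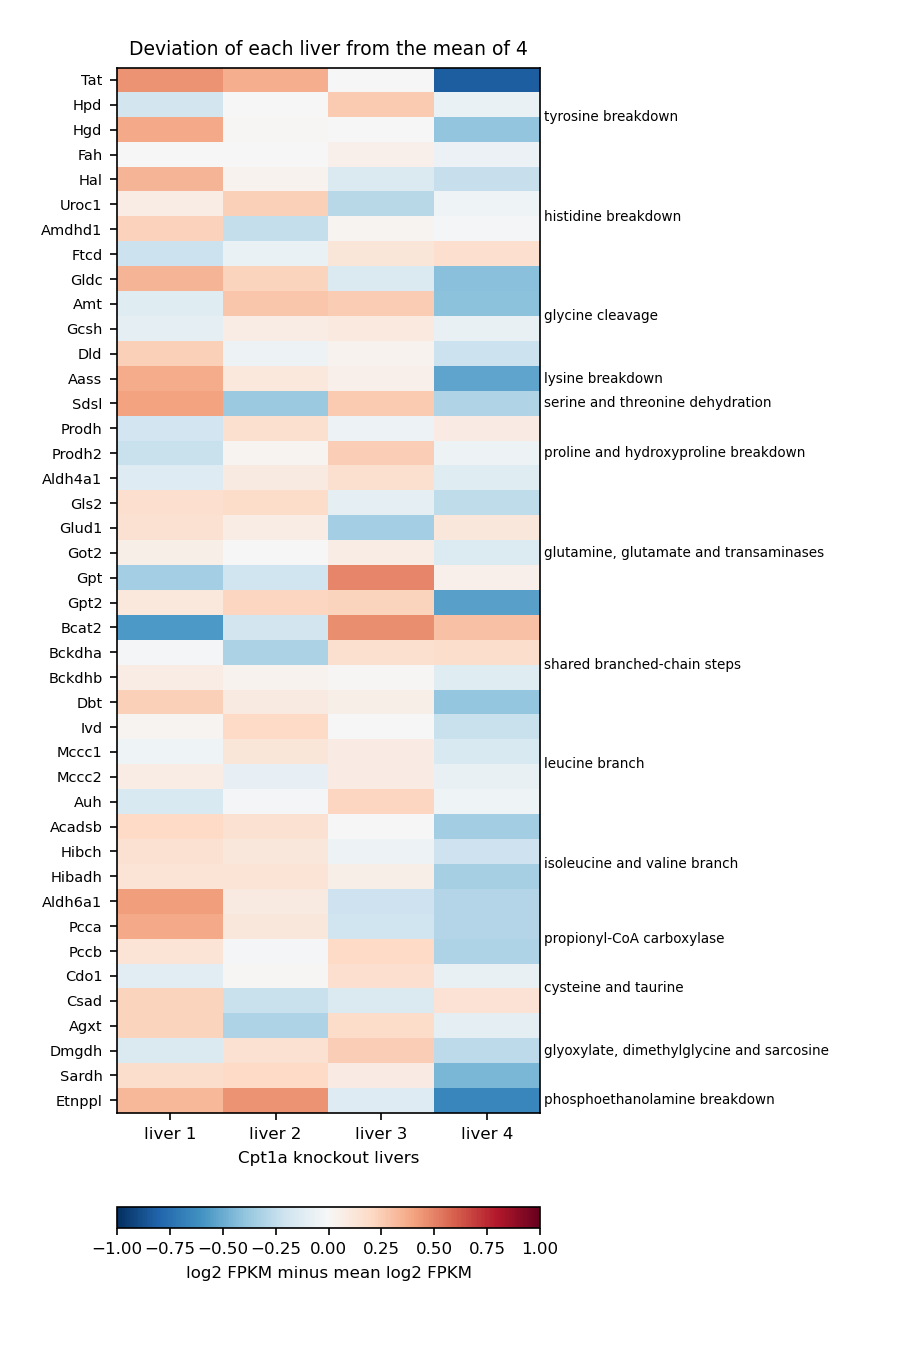
Deviation of each member in each of the 4 Cpt1a knockout livers from its mean over the livers, in log2 FPKM, with blue below and red above the mean and the members grouped by role. Liver 4 is the lowest for 24 of the 42 members, Tat and Etnppl among them.

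Other lists of liver genes give the setting of these values, and they too were drawn up with earlier results known. Against the reference group, 7.6% of all genes were lower and 6.81% higher in the Cpt1a knockout. In the Cpt2 group 10.7% of all genes were lower and 10.3% higher. The 31 other amino acid genes were mainly breakdown enzymes, but also enzymes of synthesis (Glul, Pycr1), cofactor recycling (Qdpr, Pcbd1) and regulation (Bckdk, Ppm1k). Of these 31 genes, 12 were lower and 0 higher in the Cpt1a knockout, by the authors' deposited tables. In the Cpt2 group 21 were lower and 2 higher, Bckdk by 0.66 and Pycr1 by 2.92 on the log2 scale. Over the 29 of these genes with a value, the median log2 fold change was -0.15 in the Cpt1a knockout and -0.73 in the Cpt2 group. Pycr1 had a mean of only 0.0861 FPKM in the Cpt1a knockout livers. Sds, the serine dehydratase, fell by 1.61 in the Cpt1a knockout and by 2.81 in the Cpt2 group on the log2 scale, and the mitochondrial aldehyde dehydrogenase Aldh1b1 by 2.28 in the Cpt1a knockout and by 3.10 in the Cpt2 group, by the authors' deposited tables. Of 8 urea cycle genes 6 were lower in the Cpt1a knockout and 7 in the Cpt2 group, with Ass1, Asl and Cps1 lower by 1.87, 1.68 and 1.86 on the log2 scale in the Cpt1a knockout in the authors' deposited table. Of 8 genes for the methionine cycle and transsulfuration, 6 were lower in the Cpt1a knockout and 6 in the Cpt2 group, where 1 was higher. Cbs fell by 1.18, Mat1a by 0.99 and Ahcy by 0.77 on the log2 scale in the Cpt1a knockout in the authors' deposited table.

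Some markers of hepatocytes were lower too. The shares of all genes for the marker counts below are 7.6% lower and 6.81% higher in the Cpt1a knockout. For the Cpt2 group they are 10.7% lower and 10.3% higher, each against the reference group. Of 9 hepatocyte markers found, 4 were lower and 0 higher in the Cpt1a knockout and 7 were lower in the Cpt2 group, by the authors' deposited tables, and their FPKM summed to 23798 to 33290 in the knockout livers. Of 9 periportal markers 8 were lower and 0 higher in the Cpt1a knockout in the authors' deposited table. Sds, Aldh1b1 and Arg1 are among these 8 and are also counted in the lists of amino acid genes. Of 9 pericentral markers 3 were lower and 3 higher. Glul, Oat and Slc1a2 of the pericentral list are likewise counted in the lists of amino acid genes. Of 9 Kupffer cell markers 0 were lower and 1 higher, Cd5l at 0.65, in the Cpt1a knockout against the reference group. Against the Cpt2 group 8 of these markers were higher, while 14.2% of all genes were higher there, by the authors' deposited tables. Of 7 lymphocyte markers 3 were higher in the Cpt1a knockout against the reference group in the authors' deposited table, but their FPKM summed to only 3.06 to 3.92 in the knockout livers. Of 7 endothelial and 5 bile duct markers none were called in the Cpt1a knockout against the reference group in the authors' deposited table, and of 7 stellate cell markers 1, Lrat at 0.87, was higher. At an unadjusted p below 0.05, 2 endothelial markers (both above 0) and 2 bile duct markers (both below 0) were listed in that table. That table listed 4461 genes in all. The FPKM of the Kupffer cell markers summed to 175 to 196 in the knockout livers, of the endothelial markers to 68.0 to 75.0, of the stellate cell markers to 33.2 to 40.3 and of the bile duct markers to 8.53 to 12.4. For the Cpt2 group the authors' deposited table had 7 periportal, 7 pericentral, 3 Kupffer cell, 1 endothelial and 1 bile duct marker lower, and 1 periportal and 1 pericentral marker higher. The part of cell composition and of zonation in the members' values was not tested.

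**Figure D5:**
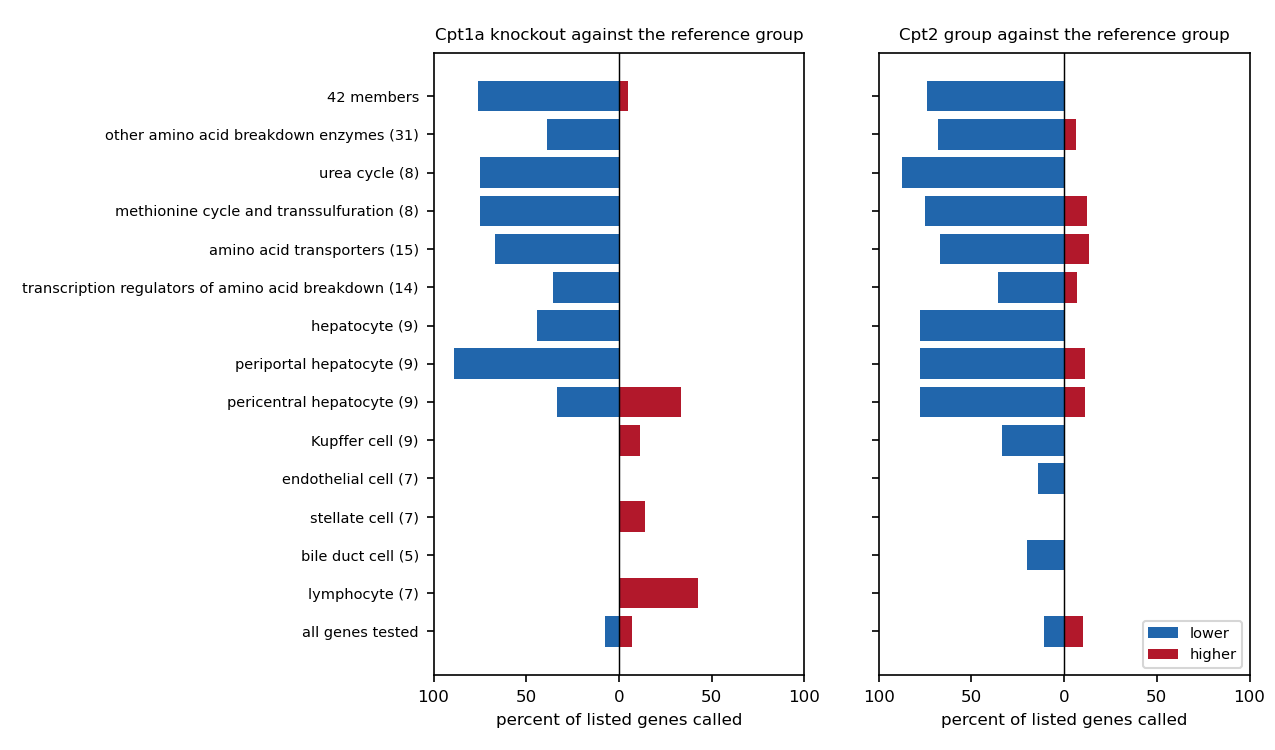
Percent of the genes in each list called lower (left of 0) or higher (right of 0) in the authors' deposited tables, for the Cpt1a knockout and for the Cpt2 group against the reference group, with the number of genes in brackets. The members and the periportal markers were mostly lower in the Cpt1a knockout, while Kupffer cell, endothelial and stellate markers were not. The list labelled other amino acid breakdown enzymes also holds enzymes of synthesis and cofactor recycling, and regulators. The list labelled transcription regulators of amino acid breakdown also holds the mitochondrial deacetylase Sirt3.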

How the data were processed

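Total RNA of 4 livers was sequenced as bulk libraries. The submitters' processing notes name HISAT2 and GRCm38 (mm10). Which program counted, and whether by strand, is not stated in the sources used here. The authors deposited raw counts per gene and FPKM. The FPKM library size, recomputed from the deposited counts, lengths and FPKM, was 1.06 to 1.15 times the sum of counts. A further 8 library columns there match none of the series' samples and were left out of every step.

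The authors deposited 3 comparison tables with a log2 fold change, p-value and adjusted p-value per gene, whose test is not given; the group means in these tables, which include groups outside the series, were not used. An adjusted p of exactly 1 was read as not adjusted. The table that sets the Cpt1a knockout against the reference lists 4461 genes with p of at most 0.05, and its adjusted values fit 16862 genes. For genes not listed, the log2 fold changes of the other tables were summed; over 4234 genes the median of sum minus listed value was -0.01. With 1 group of samples, no test between groups was fitted, and genes were called at the authors' adjusted p below 0.05.

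Spread is the SD of log2(FPKM + 1) over the 4 livers. FPKM was also rebuilt from counts with TMM (edgeR 4.0.16) and with DESeq2 1.42.0 size factors in R 4.3.3. Tables and figures were made with Python 3.11.15 and pandas 2.3.3, and near copies were sought with blastn 2.17.0 in GENCODE transcripts. The calculations were tested on simulated data. Named genes are all 42 members, the 3 genes of each other list with the smallest adjusted p, and Cpt1a and Cpt2 (1 gene that this names is not reported here); per-liver values follow the smallest adjusted p, differing calls, the level and the spread. Further genes and members named for their values were chosen after these were seen. The members and lists were chosen with earlier results of these data known. Libraries held 13138884 to 14116441 counts, and each member had at least 247 counts in each.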

Additional observations from a re-analysis of the deposited data

Results flagged for a closer look

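A direct comparison of the 2 knockouts was deposited, and 17 of the 42 members were called in it, while 28.8% of all 17755 genes were called. The 5 members that were lower in the Cpt1a knockout are 11.9% of the members, against 14.6% of all genes, and the 12 that were higher are 28.6%, against 14.2%. In the authors' deposited table the log2 fold change of the Cpt1a knockout over the Cpt2 group was 1.35 for Prodh2, 1.02 for Hal, 0.95 for Etnppl, 0.88 for Gcsh, 0.88 for Uroc1 and 0.76 for Gls2. In the same authors' deposited table it was 0.73 for Aldh4a1, 0.71 for Acadsb, 0.66 for Sardh, 0.46 for Dbt, 0.42 for Hibadh and 0.40 for Ivd. It was -0.71 for Aass, -0.54 for Got2, -0.53 for Gpt2, -0.51 for Ftcd and -0.40 for Dmgdh in the authors' deposited table. The Cpt2 libraries belong to an earlier series, so genotype and batch cannot be told apart in these values. No member had a liver that stood apart from the other 3 by Dixon's test at the 95% level, which chance passes in about 1 of 20 groups.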

How the results depend on the processing

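The direction of the members' counts and medians was the same under the alternatives run, and the counts moved mainly with the threshold. For the Cpt1a knockout relative to the reference group in the authors' deposited table, asking for at least 1 log2 unit left 11 members lower and 0 higher, and an adjusted p below 0.01 left 1 higher. For the Cpt2 group relative to the reference group, the minimum of 1 log2 unit left 13 lower. Between the Cpt1a knockout and the Cpt2 group that minimum left 0 lower and 2 higher, and an adjusted p below 0.01 left 3 lower. Shares of all genes at these settings were not computed. The summed FPKM of the members was 4952 with TMM factors and 4954 with DESeq2 size factors, against 4424 as deposited, since these use the counts in the table as library size. Leaving out each liver in turn gave a summed FPKM of 4343 to 4624 and a median SD of 0.171 to 0.232, the lowest SD without liver 4. No paired analysis was possible because the series holds 1 group of samples. The authors' comparisons were not refitted here, so no library was left out of them.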

Other observations

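Carriers that bring amino acids into hepatocytes and mitochondria were lower in large part. Of 15 amino acid transporters, 10 were lower and 0 higher in the Cpt1a knockout against the reference group, and 10 lower and 2 higher in the Cpt2 group, by the authors' deposited tables. Of all genes, 7.6% were lower and 6.81% higher in the Cpt1a knockout, and 10.7% lower and 10.3% higher in the Cpt2 group. Slc3a1, the heavy chain of the cystine and dibasic amino acid carrier, had a log2 fold change of -2.97 in the Cpt1a knockout (adjusted p = 9.33e-16) and of -3.95 in the Cpt2 group, by the authors' deposited tables, at a low level of 2.28 ± 1.14 FPKM (SD, n = 4) in the knockout livers. Slc43a1, a carrier of large neutral amino acids, had log2 fold changes of -2.16 in the Cpt1a knockout and -2.78 in the Cpt2 group. Its level was also low, at 1.03 ± 0.30 FPKM (SD, n = 4) in the knockout livers. Slc38a3, a glutamine carrier, fell by 0.90 in the Cpt1a knockout and stood at -0.32 in the Cpt2 group (adjusted p = 0.203), by the authors' deposited tables. Slc3a2, the heavy chain of other exchangers, rose by 1.52 and Slc1a4 by 1.26 on the log2 scale in the Cpt2 group in the authors' deposited table. In the Cpt1a knockout their log2 fold changes were -0.63 (adjusted p = 0.0709) and, as a sum, -0.43 in the authors' deposited tables. The level of Slc1a4 was low too, at 0.51 ± 0.15 FPKM (SD, n = 4) in the knockout livers. In the direct comparison Slc3a2 was lower in the Cpt1a knockout than in the Cpt2 group (log2 fold change -2.17, adjusted p = 5.61e-25) in the authors' deposited table.

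A list of 14 regulators of amino acid breakdown held transcription factors and coactivators, and also the mitochondrial deacetylase Sirt3. Of these 14 genes, 5 were lower and 0 higher in the Cpt1a knockout, by the authors' deposited tables. In the Cpt2 group 5 were lower and 1 higher. The shares of all genes were 7.6% lower and 6.81% higher in the Cpt1a knockout, and 10.7% lower and 10.3% higher in the Cpt2 group. Klf15, known to drive amino acid breakdown in fasting, fell by 0.82 in the Cpt1a knockout (adjusted p = 0.000591) and by 1.32 in the Cpt2 group on the log2 scale in the authors' deposited tables. Foxo1 fell by 0.87 in the Cpt1a knockout and by 1.02 in the Cpt2 group, and the coactivator Ppargc1a fell by 1.23 in the Cpt1a knockout and stood at -0.70 in the Cpt2 group (adjusted p = 0.172), by the authors' deposited tables. Ppara, the fatty acid receptor, rose by 0.72 in the Cpt2 group (adjusted p = 0.0386) and had a log2 fold change of 0.64 in the Cpt1a knockout (adjusted p = 0.0642) in the authors' deposited tables.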
